A study of Homo sapiens with 18 samples.

Results

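The replication-dependent histone genes are the clustered genes that encode the core histones H2A, H2B, H3 and H4 and the linker histone H1. They were taken from the count table by their current symbols (H1-1 to H1-5 and the numbered H2AC, H2BC, H3C and H4C genes), and a gene was kept when at least 3 libraries held 10 or more counts. Of 28395 gene identifiers, 68 matched by symbol and 49 passed: 3 of 5 H1, 12 of 17 H2A, 14 of 18 H2B, 10 of 13 H3 and 10 of 15 H4 genes. In GENCODE 29 (GRCh38), 36 of the 49 lie on chromosome 6, 12 on chromosome 1 and 1, H4C16, on chromosome 12. The 19 genes that did not pass were H1-1, H1-5, H2AC1, H2AC4, H2AC7, H2AC12, H2AC21, H2BC1, H2BC3, H2BC6, H2BC10, H3C7, H3C8, H3C11, H4C1, H4C2, H4C6, H4C7 and H4C13, and 6 of these (H1-1, H2BC1, H3C11, H4C6, H4C7 and H4C13) had 0 counts in all 18 libraries. At the edge of the rule, H2BC14, H3C12, H4C3 and H4C9 reached 10 counts in exactly 3 libraries, and H2BC6 in 2.

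The libraries came from PC-3, an established human prostate cancer cell line, whose cells were lifted off the dish and either passed through a fine needle by syringe, an exposure to fluid shear stress (sheared), or kept in suspension during that time (static). Afterwards both kinds were kept unattached on poly-HEMA, which prevents attachment, in medium with insulin, transferrin, selenium and albumin, and cytosolic RNA (the supernatant of a mild detergent lysis) was taken 3 h, 12 h or 24 h after the exposure. The 6 groups were static and sheared cells at 3 h, 12 h and 24 h, with 3 libraries each. Within a time, sheared and static libraries that bear 1 replicate number were drawn from a shared pool of cells. This makes 9 pools, with separate pools at each time. All results therefore describe 1 cell line, and no attached culture was among the groups.

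Replication-dependent histone genes are transcribed mostly during S phase, when newly made DNA has to be packed into nucleosomes. Their mRNAs are unusual in ending, as a rule, in a conserved stem-loop instead of a poly(A) tail. The stem-loop is bound by SLBP, the pre-mRNA is cut with the help of the U7 snRNP and its Lsm10 and Lsm11 proteins, and the RNA is degraded when DNA synthesis stops. NPAT, a target of cyclin E and CDK2, drives their transcription from nuclear bodies at the gene clusters. Several of these genes also give longer, polyadenylated transcripts, which are known from differentiated or arrested cells. How the libraries were selected (poly(A) or ribosomal depletion) is not given in the sources used here, so the counts cannot be divided between the 2 kinds of transcript.

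The stem-loops are shown for members on which the results turn. The letters GGNNCTNTTNAGNNCC were searched on the sense strand of coding transcripts in GENCODE 29, and the capitals mark the 16 bases of the match.
H2AC18: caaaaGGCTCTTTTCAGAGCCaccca
H2BC21: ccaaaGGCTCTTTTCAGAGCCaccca
H2BC4: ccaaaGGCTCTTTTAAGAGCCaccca
H4C8: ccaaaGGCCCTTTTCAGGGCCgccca
H4C14: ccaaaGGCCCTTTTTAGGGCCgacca
These lie at chr1:149842223-149842238 (minus strand, H2AC18), chr1:149886188-149886203 (minus, H2BC21), chr6:26123472-26123487 (minus, H2BC4), chr6:26285131-26285146 (minus, H4C8) and chr1:149833032-149833047 (plus, H4C14), each in the 3′ UTR. A match after the stop codon was found in 27 of the 49 members. The annotation of 18 others ends at the stop codon, so no loop could be read there. Over all genes, 114 of 19702 with a coding transcript (0.58%) held a match. The loop letters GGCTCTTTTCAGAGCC were shared by 6 H2A, 7 H2B and 3 H3 genes, and all 7 H4 genes with a loop had a GGCCC stem, in the form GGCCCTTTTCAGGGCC in 4 and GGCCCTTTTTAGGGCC in 3. For 20 members the annotated transcript ran on for 100 bases or more past the loop. Their mean levels had a median of 3.32 CPM (read counts scaled to a common library total after TMM correction), against 1.59 CPM for the other 29. These 29 include the 18 annotated only to the stop codon, so they are not a group with short 3′ ends.

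Some members may not be told apart by their counts. H2AC18 and H2AC19, 2 copies of 1 gene on chromosome 1, share 549 identical bases, and their counts differed by at most 11 in any library at counts of up to 10744. H4C14 and H4C15 (583 shared bases) differed by 4.95% on average, and H4C11 and H4C12 (312) by 6.79%. H3C14 and H3C15 share 1656 bases and differed by 23.2%, with H3C15 the higher in all 18 libraries (689 against 546 counts in all). How the authors assigned reads that fit both copies is not stated. The first of these pairs, and in part the others, may therefore be 1 measurement given under both names. Sums below take 1 copy of each pair, whereas counts of members tested or called keep both copies unless stated. Exons of H2AC15 and H2BC15 overlap on opposite strands over 393 bases. Those of H3C14 and H4C14, and of H3C15 and H4C15, overlap by 173 bases on opposite strands, and H2BC18 overlaps FCGR1A by 177. H2AC17 and H3C12 share 346 bases on the same strand. The strand setting of the counting is not given, and reads in these stretches may belong to either gene.

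Total counts ranged from 16400487 to 25862360 per library. The TMM factor, which corrects for the make-up of a library, was lowest in sheared 24 h replicate 3 (0.721) and 0.888 to 1.11 in the other 17. The cells carried the epithelial markers of PC-3, with KRT8 between 721.4 and 2785.6 CPM. Among androgen-dependent prostate markers, KLK2 had 0 counts in all libraries and KLK3 reached at most 0.068 CPM, whereas TMPRSS2 was at 31.4 to 106.1 CPM. The summed level of 6 haematopoietic markers was 0.450 to 2.16 CPM. That of 7 fibroblast and endothelial markers ranged from 26.1 to 32.7 CPM in static 3 h cells and from 109.0 to 143.7 CPM in static 24 h cells, of which PECAM1 made up 76.6 to 108.9 CPM in the latter, while VWF stayed at or below 0.205 CPM.

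A few members carried most of the histone counts. H2BC12 led with a mean of 205.5 CPM over the 18 libraries, which was 21.7% of the members' sum, followed by the linker histone gene H1-2 (174.8 CPM), H2AC18 (152.8 CPM) and H2BC21 (84.5 CPM). H2AC6 (73.1 CPM), H2BC5 (55.8 CPM), H2AC25 (36.9 CPM) and H2BC4 (35.2 CPM) came next, and these 8 genes made up 86.4% of the sum. Per kilobase of annotated exon the same 8 genes led, with H2BC12 at 539.3, H2AC18 at 278.4 and H1-2 at 272.2 CPM per kilobase, although the annotated models of H2BC12 and H1-2 hold only coding sequence and the authors' gene models may be longer. H2B genes held 45.2% of the sum, H2A genes 30.1% and H1 genes 18.7%. H4 genes held 3.89% and H3 genes 2.15%, with H4C14 (16.3 CPM), H4C8 (11.9 CPM), H3C10 (6.29 CPM) and H3C4 (5.22 CPM) the most abundant of these families. The exon of H3C4 lies within that of another annotated coding gene on the same strand over 411 bases. Means of 10 CPM or more were reached by 14 members, 25 lay between 1 and 10 CPM, and 10 were below 1 CPM.

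**Figure D1:**
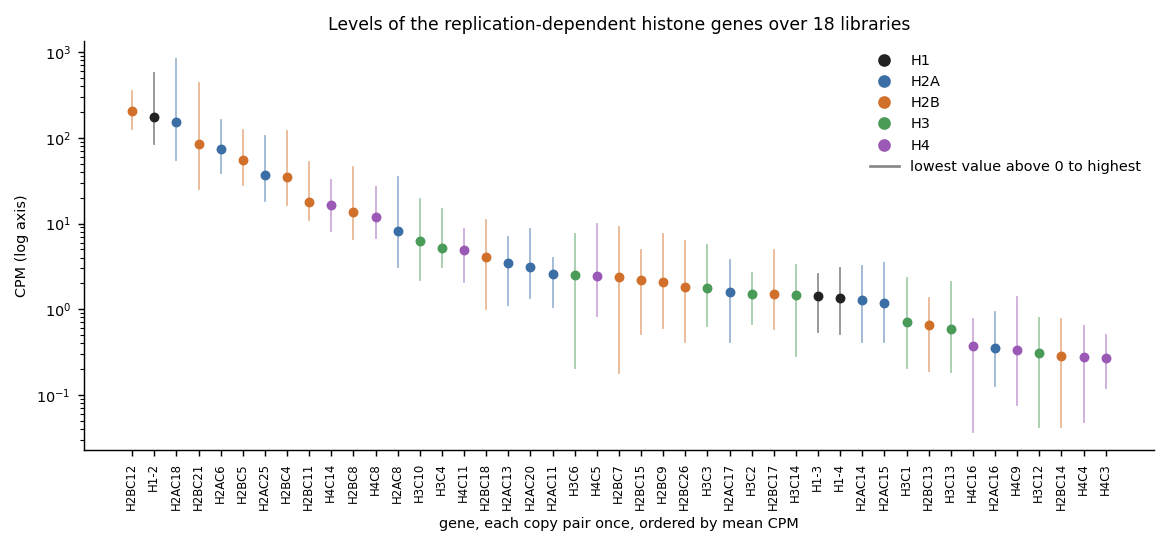
Level of each gene (one of each copy pair, 45 genes) in CPM on a log axis, ordered by the mean over 18 libraries (points) and coloured by family, with vertical lines from the lowest value above 0 to the highest. The H2B gene H2BC12, the H1 gene H1-2 and the H2A gene H2AC18 lead, and the H3 and H4 genes lie at 16.3 CPM or lower.

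In static cells the histone sum was higher at 24 h than at 12 h. It was 579.1, 590.2 and 596.6 CPM in the 3 static libraries at 3 h, 776.5, 714.7 and 711.6 CPM at 12 h, and 1318.6, 1122.9 and 1754.6 CPM at 24 h. The 3 groups did not overlap. The genes of DNA replication went the other way: the sum over 33 S phase genes (MCM subunits, ribonucleotide reductase, PCNA and others) was 2949.0 to 3359.8 CPM at 3 h, 1166.5 to 1246.6 CPM at 12 h and 481.3 to 650.0 CPM at 24 h.

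**Figure D2:**
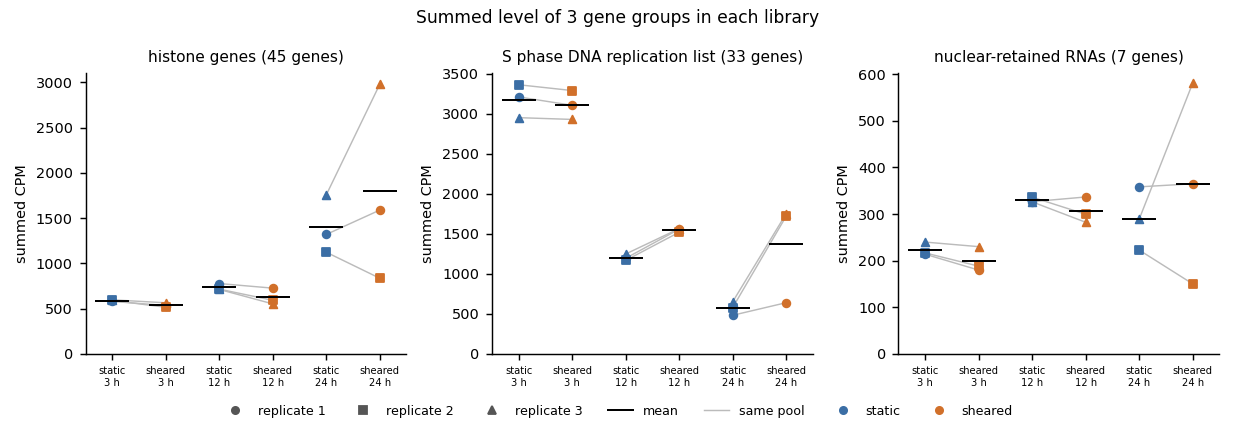
Summed CPM of the histone genes (one of each copy pair), of the S phase DNA replication list and of the nuclear-retained RNAs in each library; symbols stand for replicates, black bars for means, and grey lines join libraries from 1 pool. Between static 12 h and static 24 h the histone sum rises from 711.6-776.5 to 1122.9-1754.6 CPM while the S phase sum falls from 1166.5-1246.6 to 481.3-650.0 CPM, and in sheared 24 h libraries the histone sum spreads from 835.3 to 2976.8 CPM.

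Between static 12 h and 24 h, 16 of the 44 members tested rose and 1 fell, by edgeR's quasi-likelihood test with Benjamini-Hochberg adjusted p below 0.05 over 14804 genes. Over all of these genes, 16.9% rose and 15.6% fell. The members' median log2 fold change was 0.25, against 0.01 for all genes. Most of the rises were among the abundant members: of 14 with a mean of 10 CPM or more, 13 rose, with a median log2 fold change of 0.85 and a median standard error of 0.16. Among the 30 tested with lower means, 3 rose and 1 fell, with a median of 0.09 and a median standard error of 0.35. By family, 1 of 3 H1, 4 of 11 H2A, 5 of 14 H2B, 3 of 9 H3 and 3 of 7 H4 genes rose. The copies H2AC18 and H2AC19, and H4C14 and H4C15, all rose. They are counted under both names in these numbers, also among the 14 abundant members.

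Among the H2A genes the copies H2AC18 and H2AC19 changed most. H2AC18 was at 94.0, 82.2 and 93.2 CPM in static 12 h cells and at 224.8, 176.3 and 292.4 CPM at 24 h, so each 24 h library lay above each 12 h library. The log2 fold change was 1.35 (standard error 0.15, edgeR adjusted p = 9.32e-06). H2AC6, an H2A gene of the large chromosome 6 cluster whose annotated transcript runs 1114 bases past its loop, went from 62.7, 64.4 and 61.3 CPM to 128.2, 95.7 and 124.6 CPM, a log2 fold change of 0.88 (standard error 0.13, edgeR adjusted p = 0.000163). H2AC25, on chromosome 1 but apart from the cluster that holds H2AC18, had a log2 fold change of 0.80 (edgeR adjusted p = 0.00054).

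The H2B gene H2BC21 was at 62.2, 63.3 and 48.4 CPM at 12 h and at 115.1, 97.2 and 202.6 CPM at 24 h. Its libraries did not overlap and the log2 fold change was 1.25 (standard error 0.22, edgeR adjusted p = 0.00103). H2BC12, the most abundant member, went from 191.6, 159.1 and 162.9 CPM to 247.3, 259.0 and 349.0 CPM, a log2 fold change of 0.73 (standard error 0.14, edgeR adjusted p = 0.000957). H2BC5 (0.87), H2BC4 (0.84) and H2BC11 (0.67) were the other H2B genes that rose, and the 12 h and 24 h libraries of H2BC4 overlapped (21.8 to 29.2 and 27.0 to 64.1 CPM).

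H1-2, one of the main somatic linker histones, was at 132.6, 124.2 and 124.7 CPM at 12 h and at 234.8, 207.9 and 368.1 CPM at 24 h. All 24 h values lay above all 12 h values, with a log2 fold change of 1.08 (standard error 0.17, edgeR adjusted p = 0.000189). The other H1 members, H1-3 and H1-4, were at 0.833 to 2.50 CPM in these libraries and had log2 fold changes of -0.07 and 0.11, neither past the test.

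Of the H3 genes, H3C6 rose from 3.00, 2.22 and 2.60 CPM to 7.48, 6.02 and 4.56 CPM, a log2 fold change of 1.19 (standard error 0.26, edgeR adjusted p = 0.00235). H3C10 (0.93) and H3C4 (0.70) rose as well. Of the H4 genes, H4C8 was at 11.6, 10.8 and 12.3 CPM at 12 h and at 27.0, 22.1 and 18 CPM at 24 h, a log2 fold change of 0.94 (standard error 0.20, edgeR adjusted p = 0.00244). H4C14 rose by 0.80 and its copy H4C15 by 0.66 on the log2 scale.

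H2AC20 was the 1 member that fell. It was at 2.67, 2.81 and 3.61 CPM at 12 h and at 1.56, 1.34 and 2.25 CPM at 24 h, without overlap, a log2 fold change of -0.82 (standard error 0.29, edgeR adjusted p = 0.0392). This call was lost in 7 of 14 alternative fits: with all 18 libraries (edgeR adjusted p = 0.123), and without static 12 h replicate 1, 2 or 3, static 3 h replicate 2, or static 24 h replicate 1 or 2 (0.0502 to 0.116). The call on H2BC4 was lost without static 12 h replicate 3 (adjusted p = 0.0544) and without static 24 h replicate 3 (0.0682). That on H3C4 was lost without static 12 h replicate 1 or 2 or static 24 h replicate 1 or 3 (0.0512 to 0.0806). With all 18 libraries in the fit, 11 members rose of 47 tested, beside 11.3% of all genes. The calls on H2BC21 (edgeR adjusted p = 0.127), H2BC4 (0.181), H3C4 (0.138), H2BC11 (0.0872) and H3C10 (0.0558) were lost there, at the same fold changes to within 0.01. That on H3C4 was also lost on library totals. Scaled to library totals in place of TMM factors, the median over all genes in this comparison moved from 0.01 to -0.18, the members' median moved from 0.25 to 0.05, and 15 members rose and 1 fell.

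H2AC20 shares its start region with H2BC21. They are transcribed away from each other on chromosome 1, with 322 bases between their starts as annotated in GENCODE 29. The RefSeq start of H2AC20 used below lies upstream of its GENCODE start, so this distance depends on the annotation. H2BC21 rose by 1.25 and H2AC20 fell by 0.82 on the log2 scale over the same static libraries. Of the 8 pairs of an H2A and an H2B member that start head to head (218 to 322 bases between GENCODE starts), this was the only 1 with calls in opposite directions between static 12 h and 24 h. In 1 pair both members rose (H2BC4 at 0.84 and H2AC6 at 0.88). In 2 pairs a single member rose (H2AC25 at 0.80 beside H2BC26 at -0.16, and H2BC11 at 0.67 beside H2AC11 at -0.42), and in 4 neither was called.

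The 150 bases before the RefSeq start (GRCh38.p14) are shown for that pair, for the most abundant member H2BC12, for H2AC18 and for H4C8, with 3 promoter motifs in capitals. These were CCAAT, the site of the factor NF-Y, on either strand, the TATA box in the form TATAAA on the sense strand, and the octamer ATTTGCAT, the site of the factor encoded by POU2F1, on either strand.
H2BC21: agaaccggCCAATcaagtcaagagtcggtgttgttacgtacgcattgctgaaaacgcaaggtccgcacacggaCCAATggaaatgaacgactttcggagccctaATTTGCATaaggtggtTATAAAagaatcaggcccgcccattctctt
H2AC20: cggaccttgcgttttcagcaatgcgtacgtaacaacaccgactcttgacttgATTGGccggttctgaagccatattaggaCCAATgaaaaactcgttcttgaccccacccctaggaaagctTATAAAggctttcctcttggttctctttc
H2BC12: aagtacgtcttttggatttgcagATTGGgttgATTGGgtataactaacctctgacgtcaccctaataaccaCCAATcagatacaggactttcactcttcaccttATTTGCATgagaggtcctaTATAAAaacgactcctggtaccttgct
H2AC18: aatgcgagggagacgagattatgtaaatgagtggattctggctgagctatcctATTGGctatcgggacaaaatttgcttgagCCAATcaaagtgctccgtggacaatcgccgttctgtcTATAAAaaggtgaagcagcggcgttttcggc
H4C8: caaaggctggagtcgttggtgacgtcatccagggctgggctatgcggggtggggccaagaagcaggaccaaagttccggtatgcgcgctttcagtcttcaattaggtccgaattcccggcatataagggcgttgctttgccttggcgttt
The windows are chr1:149886683-149886832 (minus strand, H2BC21), chr1:149886768-149886917 (plus, H2AC20), chr6:27146859-27147008 (minus, H2BC12), chr1:149842751-149842900 (minus, H2AC18) and chr6:26285535-26285684 (minus, H4C8), and those of H2BC21 and H2AC20 share 65 bases. In the 250 bases before the start, read for the 47 members in the RefSeq table, CCAAT was present in 39 (83.0%), against 33% of all 27305 promoters. It was in the promoters of all 3 H1, 12 H2A, 14 H2B and 9 H3 members read, and in 1 of 9 of H4 members, and the window of H4C8 held none of the 3 motifs. TATAAA was present in 26 members (55.3%, against 7.2% of all promoters). The octamer was present in 18 members (38.3%, against 1.7%), of which 10 were H2B genes (of 14), 7 were H2A genes (of 12) and 1 was an H3 gene (of 9). The 250-base windows of head-to-head genes can overlap, so 1 site may be counted for both genes. H2AC20, for example, counts as holding the octamer although its 150 bases shown hold none, because its longer window reaches that of H2BC21. These matches describe the letters in the window and not binding.

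The other genes around histone supply were mostly lower at static 24 h than at 12 h. Among all genes tested, 15.6% fell and 16.9% rose. On the list of S phase DNA replication, 31 of 33 fell and 0 rose (median log2 fold change -1.03; 0 were higher at an unadjusted p below 0.05), among them CLSPN (-2.22), TYMS (-1.65) and DTL (-2.27). Of 22 histone chaperones and importers, 12 fell and 0 rose (0 at an unadjusted p below 0.05), including HJURP (-1.83), which loads the centromeric histone, ASF1B (-1.35) and CHAF1B (-1.25), which place new H3 and H4 on DNA, and MCM2 (-1.27). Of 29 genes of histone transcription and RNA 3′ processing, 6 fell and 2 rose. CCNE1, the cyclin partner of CDK2, rose by 1.14 and HINFP, a factor for H4 promoters, by 0.44, whereas CCNE2 (-1.42), POU2F1 (-1.09) and TUT4 (-0.78) fell.

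SLBP, the stem-loop binding protein, was at 27.7, 28.9 and 25.1 CPM at 12 h and 32.9, 29.1 and 28.7 CPM at 24 h (log2 fold change 0.14, edgeR adjusted p = 0.416). NPAT (-0.45), CASP8AP2 (-0.48) and LSM11 (-0.27) did not pass the test either. Among 11 replication-independent histone genes tested, whose mRNAs are as a rule polyadenylated and made outside S phase as well, 3 rose and 4 fell. H2AJ (0.89), H1-10 (0.79) and H3-3A (0.40) rose, and CENPA (-1.34), H2AX (-0.65), H2AZ2 (-0.63) and H2AZ1 (-0.56) fell, while H3-3B was at 0.17 and did not pass the test. The nuclear-retained RNAs summed to 326.1 to 336.2 CPM at 12 h and 222.7 to 358.3 CPM at 24 h, and MALAT1 fell by 1.21 on the log2 scale. Of 6 tested, 2 fell and 0 rose (0 at an unadjusted p below 0.05). Fewer cells of a kind, such as cells in S phase, and less RNA per cell cannot be told apart in bulk libraries.

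Between static 3 h and 12 h, 10 of 44 members rose and 0 fell (2 fell at an unadjusted p below 0.05), while 21.7% of all genes rose and 22.9% fell, so the share of members that rose was near that of all genes. The members' median log2 fold change was 0.38, against 0.01. H3C6 (1.04), H2AC11 (0.99), H4C5 (0.97), H3C10 (0.85) and H2BC21 (0.84) had the largest values among those called, followed by H2AC25 (0.54), H2AC6 (0.52), H1-2 (0.50) and the copies H2AC18 and H2AC19 (0.40 each). H2BC21, for example, was at 28.7, 31.4 and 36.8 CPM at 3 h and at 62.2, 63.3 and 48.4 CPM at 12 h, without overlap (edgeR adjusted p = 0.00781). H2BC12 was at 179.1, 175.2 and 172.7 CPM and then at 191.6, 159.1 and 162.9 CPM, with a log2 fold change of -0.04.

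The labels give the 3 h libraries another batch date than the 12 h and 24 h libraries, so the change from 3 h to 12 h and that batch cannot be told apart. Fitted with all 18 libraries, 1 member (H2AC11) rose, beside 16.9% of all genes, and without static 12 h replicate 1, 5 rose, beside 17% of all genes, with H1-2 (edgeR adjusted p = 0.0739), H2AC18 (0.12), H4C5 (0.0846) and H3C10 (0.0556) among those lost. H2AC18 also failed without any 1 of static 3 h replicates 1 to 3 or static 12 h replicate 3 (0.084 to 0.103), and H1-2 without static 3 h replicate 1 or 2 (0.0766 and 0.0852). H4C5 failed without static 3 h replicate 1 (0.109). All 33 S phase genes fell between these times (median -1.49), with DTL (-2.93), UHRF1 (-2.40), MCM6 (-2.15) and MCM4 (-2.10) leading by p. In the processing list 20 of 29 fell and 2 rose, beside 22.9% and 21.7% of all genes. SLBP fell by 1.42 (from 70.0-75.4 to 25.1-28.9 CPM), CASP8AP2, a partner of NPAT in histone transcription, by 1.13 and NPAT by 0.66 on the log2 scale. H2AX fell by 0.58. The summed level of 17 RNAs without a poly(A) tail was 166.7 to 415.0 CPM in static 3 h libraries and 11.4 to 86.0 CPM at 12 h, mostly RN7SL1 and RN7SL2. That of the nuclear-retained RNAs was 213.7 to 239.8 CPM at 3 h and 326.1 to 336.2 CPM at 12 h. The part of either in the histone values was not tested.

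**Figure D3:**
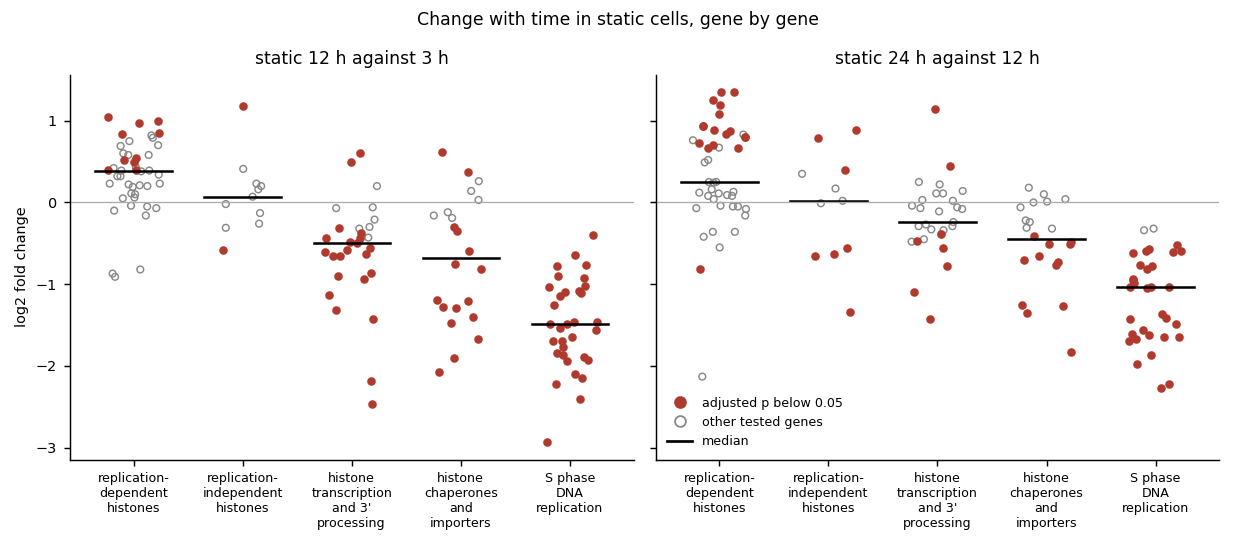
Log2 fold change of each tested gene in static cells, 12 h against 3 h (left) and 24 h against 12 h (right), for the histone genes and 4 lists; filled points have an adjusted p below 0.05 and bars are medians. From 12 h to 24 h the histone median is 0.25 and the S phase median -1.03.

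Shear at 3 h gave no call among the members. By edgeR's test, 0 of 47 tested rose and 0 fell, beside 1.12% and 0.342% of all 15189 genes. DESeq2 also called 0 in each direction. At an unadjusted p below 0.05, 1 member was higher and 6 were lower, beside 5.17% and 4.02% of all genes. The members' median log2 fold change was -0.32, against 0.01 for all genes, and 41 of 47 lay below 0. All 3 sheared libraries lay below all 3 static ones for 11 of the 49 members and above them for 1 (H2AC16), compared with 8.83% and 9.92% of all genes. H4C14 was at 13.7, 13.4 and 14.1 CPM in static and 11.2, 8.23 and 11.9 CPM in sheared cells, a log2 fold change of -0.41 (standard error 0.17, edgeR adjusted p = 0.423). H2BC8 was at 9.86, 10.7 and 10.7 CPM against 7.14, 7.28 and 7.0 CPM (-0.54, standard error 0.28, edgeR adjusted p = 0.608). Fitted on the 3 h libraries alone, with the pools as blocks, 6 of 42 members tested fell and 0 rose, beside 4.49% and 5.64% of all genes in that fit. Of the most abundant members, H2BC12 had a log2 fold change of -0.05 (standard error 0.10) and H1-2 of 0.01 (standard error 0.14). MALAT1, a nuclear-retained RNA, was also lower in each sheared library, at 15.1, 14.4 and 15.1 CPM against 29.5, 25.8 and 23.9 CPM in static ones, and the sum of the nuclear-retained RNAs was 179.7 to 230.0 against 213.7 to 239.8 CPM. The part of nuclear RNA in these values was not tested.

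At 12 h the picture was similar, with a median of -0.34 and 40 of 47 members below 0. By edgeR's test 0 rose (0 also at an unadjusted p below 0.05 and by DESeq2) and 1 fell, while 6.29% of all genes rose and 4.55% fell. That member, H4C15, was at 18.2, 14.1 and 20.5 CPM in static and 11.4, 10.4 and 14.3 CPM in sheared cells, lower in each pool though the groups overlapped, a log2 fold change of -0.55 (standard error 0.17, edgeR adjusted p = 0.0497). Its call was lost in 8 of 15 alternative fits, among them without replicate 1, 2 or 3 of 12 h (adjusted p of 0.13 to 0.245) or of 3 h (0.0698 to 0.0765), without 24 h replicate 1 (0.0501) and without the pools as blocks (0.221). Over all 15 the adjusted p ranged from 0.0104 to 0.245, and its copy H4C14 had an edgeR adjusted p of 0.0847. All sheared libraries lay below all static ones for 10 of the 49 members and above for 2 (H1-4 and H3C1), compared with 14.4% and 14.6% of all genes. H2AC18, its copy H2AC19, H2BC8, H3C4 and H4C14 were separated in this way at both 3 h and 12 h. These 5 were named after their values were seen. The share of all genes separated at both times was not computed, so the recurrence is not read as a result. H4C8 was at 11.6, 10.8 and 12.3 CPM in static and 8.72, 8.01 and 8.55 CPM in sheared cells (-0.46, standard error 0.18, edgeR adjusted p = 0.109). Scaled to library totals, which moved the median over all genes from -0.01 to -0.16, the members' median was -0.50 and 4 fell, beside 9.49% of all genes. The nuclear-retained RNAs summed to 282.3 to 336.6 CPM in sheared and 326.1 to 336.2 CPM in static 12 h libraries.

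**Figure D4:**
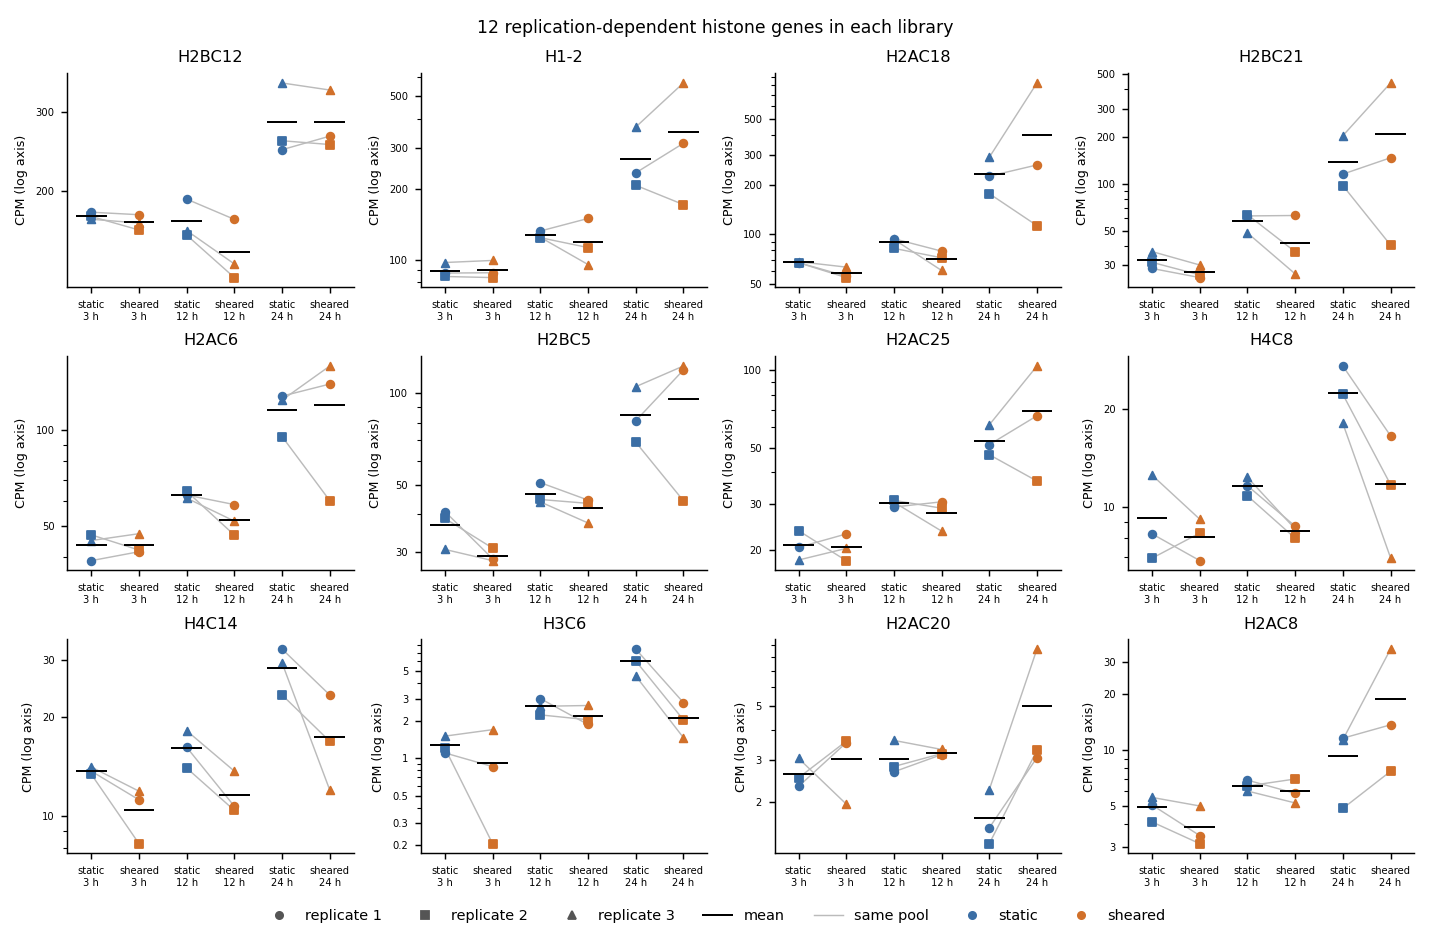
CPM (log axes, each with its own range) of 12 histone genes in each library; symbols stand for replicates, black bars for means, and grey lines join a static and a sheared library from 1 pool. H4C8, H4C14 and H3C6 are lower in the sheared library of all 3 pools at 24 h, H2AC20 and H2AC8 are higher in all 3, and the abundant H2AC18 and H2BC21 are lower in pool 2 and higher in pools 1 and 3.

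At 24 h, 2 members rose with shear and 4 fell of 47 tested, while 9.13% of all genes rose and 8.07% fell, so the shares of members called were near or below those of all genes. H2AC20, of the chromosome 1 cluster, was at 1.56, 1.34 and 2.25 CPM in static and 3.06, 3.28 and 8.67 CPM in sheared cells, without overlap. Its log2 fold change was 1.45 (standard error 0.30, edgeR adjusted p = 0.00296). H2AC8 was at 11.6, 4.85 and 11.4 CPM in static and 13.7, 7.69 and 35.1 CPM in sheared cells, higher in each pool though the groups overlapped, a log2 fold change of 0.87 (standard error 0.23, edgeR adjusted p = 0.0135). Without 24 h replicate 3 the call on H2AC8 was lost (0.45 on the log2 scale, adjusted p = 0.225).

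The members that fell were H3 and H4 genes. H4C8 was at 27.0, 22.1 and 18 CPM in static and 16.5, 11.7 and 6.98 CPM in sheared cells, without overlap, a log2 fold change of -0.98 (standard error 0.18, edgeR adjusted p = 0.000968). H3C6 was at 7.48, 6.02 and 4.56 CPM against 2.79, 2.03 and 1.46 CPM, also without overlap (-1.54, standard error 0.33, edgeR adjusted p = 0.00418). H4C14 was at 32.3, 23.4 and 29.3 CPM against 23.4, 16.9 and 12.0 CPM (-0.73, standard error 0.17, edgeR adjusted p = 0.00716), and its copy H4C15 had a value of -0.62 (edgeR adjusted p = 0.019). Calls on H2AC20, H4C8 and H3C6 held in all 15 alternative fits, and those on H4C14, H4C15 and H2AC8 were lost in 3. Without 24 h replicate 3 the edgeR adjusted p was 0.101 for H4C14 and 0.238 for H4C15. Without the pools as blocks it was 0.0606 for H4C14, 0.141 for H4C15 and 0.141 for H2AC8, and with the 24 h libraries fitted alone it was 0.0758, 0.122 and 0.0943. In the authors' deposited table for 24 h, 42 of the 49 members had an adjusted p. Of these, 1 was higher and 3 were lower at an adjusted p below 0.05: H2AC20 (1.50), H3C6 (-1.51), H4C8 (-0.918) and H4C14 (-0.677). The authors' deposited tables for 3 h and 12 h called 0 of the 43 and 42 members with an adjusted p. The shares of all genes called in the authors' tables were not computed.

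Families differed in the sign of their values at 24 h. Of 8 H4 genes tested, 3 fell and 7 lay below 0 (median -0.43), and the copies H4C14 and H4C15 are both among those 3. All 14 H2B genes lay above 0 (median 0.33) and 0 were called, but 9 of 14 lay above 0 on library totals, a scaling that moved the median over all genes from -0.02 to -0.18, while H4 kept its 3 calls. Of 12 H2A genes 10 lay above 0 (8 on library totals), and of 10 H3 genes 6 did (2 on library totals). All 3 sheared libraries lay above all 3 static ones for 2 members (H2AC17 and H2AC20) and below them for 2 (H3C6 and H4C8), compared with 7.49% and 7.64% of all genes. No test compared the families with each other.

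The 3 pools disagreed at 24 h. Sheared cells lay above static cells for 28 of 49 members in pool 1 (median log2 ratio 0.08), for 10 in pool 2 (-0.47) and for 40 in pool 3 (0.81). At 3 h the counts were 16, 7 and 13, and at 12 h 18, 12 and 8, so sheared cells were lower for most members in each of these 6 pools. H2AC18 was at 224.8, 176.3 and 292.4 CPM in static and 262.9, 112.9 and 824.3 CPM in sheared 24 h cells, with log2 ratios of 0.23, -0.64 and 1.49 in pools 1, 2 and 3. H2BC21 had ratios of 0.35, -1.26 and 1.12, and H1-2 of 0.42, -0.27 and 0.63. H2BC12 did not spread in this way (0.10, -0.03 and -0.05; log2 fold change 0.01, standard error 0.10). Without 24 h replicate 2, 10 of 48 members tested rose with shear and 4 fell, beside 9.56% and 8.99% of all genes in that fit. Without 24 h replicate 3, 1 of 47 rose and 2 fell, beside 6.09% and 3.94%.

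**Figure D5:**
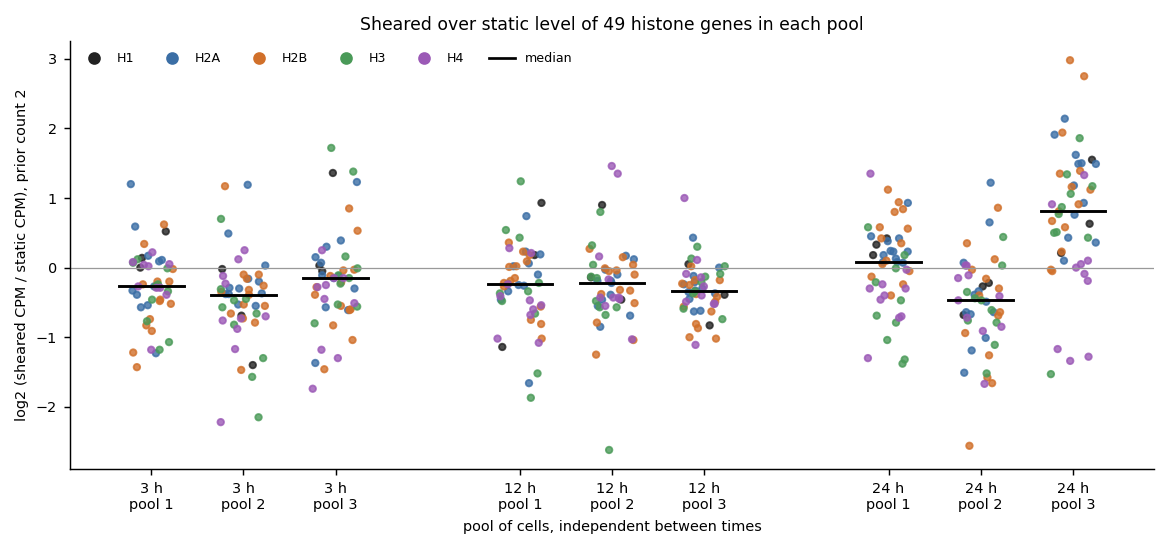
Log2 ratio of sheared over static level (CPM with a prior count of 2) of the 49 genes in each of 9 pools, coloured by family; bars are medians. Medians lie below 0 in the 6 pools of 3 h and 12 h, and at 0.08, -0.47 and 0.81 in the 3 pools of 24 h.

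The nuclear-retained RNAs spread over the same 24 h libraries. Their sum was 364.9, 150.2 and 580.6 CPM in sheared replicates 1, 2 and 3 and 358.3, 222.7 and 288.8 CPM in static ones. NEAT1 was at 162.6, 43.5 and 405.7 CPM and MALAT1 at 29.9, 7.15 and 68.4 CPM in the sheared libraries. The histone sum in these libraries was 1587.7, 835.3 and 2976.8 CPM, so both were lowest in replicate 2 and highest in replicate 3. The sum of 15 replication-independent histone genes had the same order (4159.5, 3957.2 and 6407.6 CPM). Its order in replicates 1 and 2 depends on the TMM factors, which were 0.888, 0.965 and 0.721 in sheared replicates 1, 2 and 3. In static 24 h libraries the histone sum was 1318.6, 1122.9 and 1754.6 CPM, highest in replicate 3, whereas the nuclear-retained sum was highest in replicate 1. The part of nuclear RNA in the histone values was not tested. H4C8, H4C14 and H3C6 did not follow the order of the sheared sums and were lowest in sheared replicate 3. The S phase list summed to 638.7, 1718.7 and 1750.3 CPM in sheared replicates 1 to 3.

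Around the histone genes, shear at 24 h went with higher S phase genes: 25 of 33 rose (median 1.13), led by CDT1 (1.91), RRM2 (2.26), TK1 (1.22) and TYMS (1.38). Among all genes tested, 9.13% rose and 8.07% fell. Of 22 chaperones and importers 8 rose and 2 fell, and ASF1B (1.49), HJURP (1.78), NAP1L1 (0.79) and SSRP1 (0.60) were among the rises. Of 29 processing genes 7 rose and 0 fell (2 at an unadjusted p below 0.05), with CDK2 (0.80), SNRPF (0.62), SNRPE (0.43), SNRPG (0.47) and LSM11 (0.64) rising. SLBP (0.11), NPAT (-0.14) and CASP8AP2 (-0.22) did not pass the test. Of 11 replication-independent histone genes, CENPA (1.43), H2AX (0.89), H2AZ1 (0.62) and H2AZ2 (0.35) rose. H3-3B (0.03) and MALAT1 (0.70) did not pass the test.

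The shear comparison at 24 h and the static comparison of 24 h with 12 h share the 3 static 24 h libraries, so their values are not independent. Side by side, static change and shear effect were 0.94 and -0.98 for H4C8, 1.19 and -1.54 for H3C6, 0.80 and -0.73 for H4C14, and -0.82 and 1.45 for H2AC20. For H2AC18 they were 1.35 and 0.36, for H1-2 1.08 and 0.26, and for H2BC12 0.73 and 0.01, and none of these 3 shear values passed the test.

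A difference in the shear effect between neighbouring times was not called for any member by edgeR's test. For 12 h minus 3 h, 0 of 47 were higher and 0 lower, with 0.514% and 0.895% of all genes called. At an unadjusted p below 0.05 these were 2 and 1, beside 6.31% and 6.86% of all genes. For 24 h minus 12 h, 0 were higher and 0 lower, with 0.586% and 0.079% of all genes called. At an unadjusted p below 0.05, 6 were higher and 2 lower, beside 4.16% and 4.11% of all genes. H2AC20 led these (difference 1.35, standard error 0.41, edgeR adjusted p = 0.23). The members' median difference was 0.46, against -0.01 for all genes, with 36 members above 0 and 11 below. All 14 H2B genes lay above 0, and 7 of 8 H4 genes lay below. DESeq2 called 0 members in each direction in both of these differences. For 24 h minus 3 h, a difference added after the data had been seen, 1 member (H2AC8) was higher and 0 were lower. Over all genes, 3.08% and 2.81% were called. At an unadjusted p below 0.05, 5 members were higher and 1 was lower, for which the share of all genes was not computed.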

How the data were processed

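Cytosolic RNA of PC-3 cells was sequenced in 18 libraries, 3 in each of 6 groups. The deposited table holds raw read counts per gene, and the submitters' processing notes name STAR, DESeq2 and the build GRCh38.p13. For the read counter, gene annotation, strand setting and library selection the entry is: not given in the sources used here. Besides the counts, the authors deposited a table of log2 fold changes with p-values for each time, in which some adjusted p-values are empty and were left so. Total counts of 16400487 to 25862360 per library limit the precision of members with few counts, and values are given with the spread of 3 replicates.

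CPM were computed from the counts and the library totals of tested genes multiplied by TMM factors. Shear effects were tested with edgeR 4.0.16 (quasi-likelihood F test, TMM factors, R 4.3.3) in 1 fit of all 18 libraries, with the 9 pools as blocks, over 15189 genes kept by filterByExpr (minimum count 10, minimum total 15). Static times were compared in a fit of the 9 static libraries over 14804 genes. Each fit had 6 residual degrees of freedom. Genes were called at a Benjamini-Hochberg adjusted p below 0.05 over all genes, "rose" and "fell" mean such a call, and all p-values are 2-sided. A standard error is the fold change divided by the square root of F. Log2 ratios of single pools used a prior count of 2.

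The pairing by pool comes from the series' design text. Deviations from the group means correlated within pools with r between 0.0852 and 0.289 (3 h), between -0.146 and 0.246 (12 h) and between 0.382 and 0.512 (24 h). No 2 replicate libraries agreed within sampling noise. Alternatives were DESeq2 1.42.0, its size factors, library totals, no filter, no block, each time alone, all 18 libraries for the static times, and each pool or static library left out. The procedure was tested on simulated data.

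Members, lists and tests were chosen with earlier results of these data known. Named with values were the 8 members with the highest CPM per kilobase, up to 6 called members per comparison and direction by smallest p, the 2 members of each family with most counts, up to 4 genes of each list by smallest p, and SLBP, NPAT, CASP8AP2, LSM11, H2AX, H2AZ1, H3-3B and MALAT1. A few genes that this rule also names are not reported here. Any other named gene was chosen after its values were seen. Stem-loops were read from GENCODE 29 transcripts (GRCh38) and promoters from RefSeq (GRCh38.p14), which had 47 of the 49 members.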

Additional observations from a re-analysis of the deposited data

Results flagged for a closer look

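The shear effect on H2AC8, an H2A gene, differed between 24 h and 3 h by 1.23 on the log2 scale (standard error 0.32, edgeR adjusted p = 0.0311 over 15189 genes). This difference was computed after the data had been seen. The 3 pools of 3 h had log2 ratios of sheared over static of -0.54, -0.38 and -0.15, and those of 24 h had 0.24, 0.65 and 1.62. These ratios come from the same counts as the call and add no separate evidence. The call was lost in 7 of 14 alternative fits. Without 24 h replicate 3 the difference was 0.81 (edgeR adjusted p = 0.127), and the shear effect at 24 h fell short of the threshold at 0.45 (0.225). Without 3 h replicate 1, 2 or 3 the difference was 1.15 to 1.35 (adjusted p of 0.0688 to 0.138), and without 12 h replicate 2 it was 1.23 (0.052). On library totals it was 1.1 (0.0528), and without the pools as blocks 1.36 (0.333). H2AC8 was 1 of 47 members called higher in this difference and 0 were lower, beside 3.08% and 2.81% of all genes. At an unadjusted p below 0.05, 5 members were higher and 1 was lower, without a share of all genes to set beside them. The 3 h and 24 h libraries carry different batch dates, and the time and that batch cannot be told apart.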

How the results depend on the processing

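With the pools as replicate block, 1 member fell with shear at 12 h and 2 rose and 4 fell at 24 h. The shares of all genes were 4.55%, 9.13% and 8.07%. With no replicate block the members called were 0, 1 and 2, beside 0.902%, 3.9% and 2.11% of all genes. Each time fitted alone gave 6 lower at 3 h (4.49% of all genes) and 4 lower at 12 h (6.44%). At 24 h it gave 1 higher (3.4%) and 2 lower (1.98%). Library totals gave 4 lower at 12 h, beside 9.49% of all genes. With no filter, 3 were lower at 12 h, beside 4.1% of all genes. In the same setting 4 had a higher shear effect at 24 h than at 12 h (0 with the filter), beside 1.01%. There 2 fell between static 3 h and 12 h (0 with the filter), beside 16.2%. Counting copy pairs once gave 0 lower at 12 h. Leaving out 1 pool gave 0 to 3 lower at 12 h, beside 1.07% to 7.37% of all genes. At 24 h it gave 1 to 10 higher and 2 to 4 lower, beside 6.09% to 9.56% and 3.94% to 8.99%. For 24 h minus 12 h it gave 0 to 3 higher, beside 0.0843% to 1.01%. The 10 at 24 h and the 3 for 24 h minus 12 h were without 24 h replicate 2, beside 9.56% and 0.618% of all genes. The 1 higher and 2 lower at 24 h were without 24 h replicate 3. At 12 h the 3 lower were without 24 h replicate 2 or 3. Leaving out 1 static library gave 0 to 1 lower for static 24 h against 12 h, beside 9.23% to 19% of all genes. For static 12 h against 3 h it gave 5 to 12 higher, beside 16.7% to 23.1% of all genes. In that comparison 0 to 2 were lower, beside 17.7% to 24.6%. There 1 was lower without static 24 h replicate 1, and 2 without static 3 h replicate 1 or static 24 h replicate 3. With all 18 libraries, 1 rose from 3 h to 12 h, beside 16.9% of all genes. From 12 h to 24 h, 11 rose (16 with the static libraries alone) and 0 fell, beside 11.3% and 9.71%. So 15 of 27 calls on single members between static times were lost in that fit. The cause of these changes was not tested. DESeq2, its size factors and no filter lost none of the 34 calls on single members, library totals lost 1, and no call on these 34 reversed under any alternative run. On library totals the calls over all genes were 425 higher and 1441 lower for shear at 12 h (956 and 691 with TMM), 782 and 2410 at 24 h (1387 and 1225), and 1334 and 3738 for static 24 h against 12 h (2499 and 2306). Depth limits the 10 members with means under 1 CPM, and the median standard error of members under 10 CPM was 0.40 for shear at 24 h, against 0.17 for the others.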

Other observations

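Members annotated with 100 or more bases past the stem-loop and the other members were both among those that rose in static cells between 12 h and 24 h. The other members are not a group with short 3′ ends, since 18 of them are annotated only to the stop codon. They also include H3C6, H2BC11 and H2BC5, which rose. Their longest annotated transcripts run 1908, 569 and 384 bases past the stop codon without a loop match. In the first group 8 of 19 tested rose and 0 fell (median log2 fold change 0.25), and in the second 8 of 25 rose and 1 fell (median 0.49), beside 16.9% and 15.6% of all genes. By chromosome, 10 of 31 members tested on chromosome 6 rose (median 0.25), and 6 of 12 on chromosome 1 rose and 1 fell (median 0.41), beside the same shares of all genes. The difference between these groups was not tested. The counts keep both copies of each pair, and H2AC18, H2AC19, H4C14 and H4C15 are all among the members that rose.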
